A study of Mus musculus with 24 samples.

Results

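The data describe 6 genes, *Cyb5r1*, *Cyb5r2*, *Cyb5r3*, *Cyb5r4*, *Cyb5a* and *Cyb5b*, which encode the cytochromes b5 and the reductases that pass electrons to them. They were taken by gene symbol from 55335 genes counted by bulk RNASeq of cultured primary OBs, the bone-forming cells grown here from mouse parietal bones. The WT cells and the cells labelled Het G610C, heterozygous for a Gly to Cys substitution in the *Col1a2* gene of procollagen I, were both under osteogenic differentiation, and 4 libraries were made from each genotype at days 8, 14 and 21. Per the study's methods both genotypes are from the C57BL/6J background, each preparation pooled pups of 1 genotype in their first week of life, and cells that do not make collagen I grew beside the OBs. The wells are therefore not separate animals, and p-values measure the spread between these libraries, which may be technical. The study's methods also describe separate experiments with cells from different litters, which differed in plating density and in oxygen early in culture. Which replicate number belongs to which experiment is not given in the sources used here.

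Cytochrome b5 is a small haem protein that accepts electrons from NADH through a flavoprotein, the cytochrome b5 reductase, and hands them to enzymes anchored in the same membrane. *Cyb5a* encodes the form of the endoplasmic reticulum (ER) and *Cyb5b* the form of the outer mitochondrial membrane. *Cyb5r3* encodes the classical reductase, best known from the red cell, where its loss causes methaemoglobinaemia. In other tissues the pair supports fatty acid desaturation and sterol synthesis in the ER. *Cyb5r4* encodes a fusion of a cytochrome b5 domain with a reductase domain, and *Cyb5r1* and *Cyb5r2* encode close relatives of the classical reductase.

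*Cyb5r1* was chosen because the study reads it as a marker that differs between Het and WT at days 14 and 21. Its values in that comparison, and in those that share the Het libraries of those days, are therefore a description with no test. The WT libraries of those days were part of that choice too. Tests of *Cyb5r1* between days in WT, also as a count ratio, are thus not independent of the choice. The other 5 genes were taken by name as relatives of *Cyb5r1*, and they were tested. Levels are given as relative quantity (RQ), for which each count was divided by a scale made of 4 housekeeping genes (*Sdha*, *Mrfap1*, *Actb* and *Actg1*), the geometric mean of their counts in that library. Fold changes and adjusted p-values come from edgeR's quasi-likelihood test over 20434 genes with Benjamini-Hochberg adjustment, and a gene was called at an adjusted p under 0.05.

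The libraries held 17140202 to 59734231 counts. The 6 libraries numbered replicate 1 held 17140202 to 25825762 and the other 18 held 28159342 to 59734231, so ratios are also given inside replicate 1 alone and inside replicates 2 to 4. The housekeeping scale stood at 544 to 629 CPM at day 8 and at 428 to 517 CPM later. On it the median log2 fold change of all genes was 0.13 in WT and 0.12 in Het between days 8 and 14, against 0.01 and 0.00 with TMM, so that changes between those days are to be read relative to that shift. Of the genes called in Het against WT at days 14 and 21, 1461 were higher and 1637 lower, and with TMM 2470 were higher and 1514 lower. The 8 osteoblast markers were present in every group, and their RQ summed to between 17.4 and 48.1 at day 8 and to between 95.9 and 187 from day 14. Of the other cell types, 3 of 5 macrophage and osteoclast markers (*Cd68*, *Csf1r* and *Adgre1*) were called higher in Het at days 14 and 21, where 7.15% of all genes were. The RQ summed over their list ranged over 1.18 to 1.51 in WT and over 1.25 to 2.15 in Het at day 14, and over 1.91 to 2.16 and 2.22 to 2.96 at day 21. Of the osteoblast markers 2 of 8 (*Bglap* and *Runx2*) were called lower, where 8.01% of all genes were, and all 8 without replicate 1. Among fits that leave libraries out, the one without replicate 1 called the most of all genes at days 14 and 21, given at the end. Marker calls that appear only in it are therefore not read as a result about these markers. The summed RQ of the cartilage markers *Acan* and *Col2a1*, most of it from *Col2a1*, had medians of 21.8 in WT and 11.1 in Het at day 8. The medians were 8.80 and 2.02 at day 14 and 4.26 and 1.17 at day 21. Both markers were called lower in Het at days 14 and 21 without replicate 1 and neither with it. *Myh11* of smooth muscle was called higher in Het. Of the other markers that passed the filter, 1 of fibroblasts, 2 of endothelium, 1 of 2 of adipocytes and 1 of 2 of neutrophils, none was called with all 24 libraries, and *Cd33* was called higher without replicate 1. None of the 3 red cell markers passed the filter, so they could not be tested. *Ly6g* of neutrophils and *Hbb-bs* of red cells were at 0 counts in all 24 libraries. The part of these cells in the values below was not tested, and in bulk RNA fewer cells of a type and less RNA per cell cannot be told apart.

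The gene *Cyb5r1* (ENSMUSG00000026456.18) lies at chr1:134405559-134411740 on the plus strand of mm10, *Cyb5r2* (ENSMUSG00000048065.8) at chr7:107748455-107758032 on the minus strand and *Cyb5r3* (ENSMUSG00000018042.18) at chr15:83153494-83172592 on the minus strand. *Cyb5r4* (ENSMUSG00000032872.16) lies at chr9:87022014-87077774 on the plus strand. The 6 genes lie on 6 different chromosomes, and all 6 passed the filter on low counts. *Cyb5r2* shared 129 of its 2772 exon bases with *Ppfibp2* on the opposite strand, and *Cyb5r3* shared 243 of 4298 with *Gm49463*. Whether the counting used strand is not given in the sources used here, so reads in those bases cannot be assigned to either gene.

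The start regions of *Cyb5r1* and *Cyb5r2* are shown because these members had the largest fold changes of Het against WT late in culture. RefSeq windows (GRCm38.p6, 250 bases before to 50 bases after the start site) were used for 4 of the 6 genes. *Cyb5a* was left out of the search, and no window was found for *Cyb5r3*. The 4 windows were searched on both strands for TGATGNAA, the core of the element bound by C/EBP and ATF factors, and for TGACGTCA, the cyclic AMP response element. These letters were chosen after the values of the genes were known, and both motifs begin with TGA. The *Cyb5r2* window held a match to the first motif on the strand opposite to the gene, bases 12 to 19 counted from the start site, inside its first exon. The stretch of 30 bases at chr7:107758003-107758032 is printed on the gene's strand with the match in capitals, and below it stand the 250 bases before the start site of *Cyb5r1*, chr1:134405531-134405780 on the plus strand, with no capitals because neither motif was found. In the GENCODE annotation a noncoding transcript of *Cyb5r1* begins within that stretch, which is why the gene's start given above lies before the RefSeq start site.
Cyb5r2: actgccggatgTTTCATCAtccccaccatc
Cyb5r1: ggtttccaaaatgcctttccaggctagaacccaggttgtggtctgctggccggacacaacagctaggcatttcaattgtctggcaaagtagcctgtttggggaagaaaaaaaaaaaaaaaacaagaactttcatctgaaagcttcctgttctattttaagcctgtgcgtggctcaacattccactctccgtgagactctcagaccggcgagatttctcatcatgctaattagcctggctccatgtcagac
Neither motif was found in the windows of *Cyb5r1*, *Cyb5b* and *Cyb5r4*, which says only that these letters are not there. Of all 32851 RefSeq windows of this length, 3.97% held TGATGNAA and 1.79% held TGACGTCA.

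Per kb of exon, the only scale on which levels are compared between genes here, *Cyb5r3* was the most abundant of the 6 in every group and *Cyb5r2* the least. The RQ per kb in WT at day 8 was 0.174 ± 0.0088 (SD, n = 4) for *Cyb5r3*, 0.0953 ± 0.0046 for *Cyb5b*, 0.0484 ± 0.0072 for *Cyb5a* and 0.0168 ± 0.0025 for *Cyb5r1*. It was 0.00818 ± 0.00049 for *Cyb5r4* and 0.000402 ± 0.000089 for *Cyb5r2*. These levels did not overlap between neighbours in the order, and the order was the same in WT at days 14 and 21. In Het at day 14 *Cyb5r1* reached 0.0249 to 0.053 per kb and overlapped *Cyb5a*, which stood at 0.0467 ± 0.0046. In Het at day 21 the levels were 0.04 ± 0.0061 for *Cyb5r1* and 0.0616 ± 0.0019 for *Cyb5a*, and they did not overlap.

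Expressed as shares of the counts per kb of all 6 genes, the reductase *Cyb5r3* made up 50.7% ± 1.03 in WT at day 8 and the mitochondrial *Cyb5b* 27.8% ± 2.22. *Cyb5r1* made up 4.89% ± 0.517 in WT and 5.67% ± 0.309 in Het at day 8. It made up 5.11% ± 0.251 and 12.05% ± 3.48 at day 14, and 4.82% ± 0.417 and 10.8% ± 1.54 at day 21 (SD, n = 4 each). The share of *Cyb5r3* was 51.7% ± 0.889 in WT and 46.2% ± 5.46 in Het at day 14, and 55.2% ± 1.81 and 48.3% ± 2.38 at day 21. *Cyb5r3* remained the largest share in each of the 6 groups, and a share that grows lowers the others by construction.

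**Figure D1:**
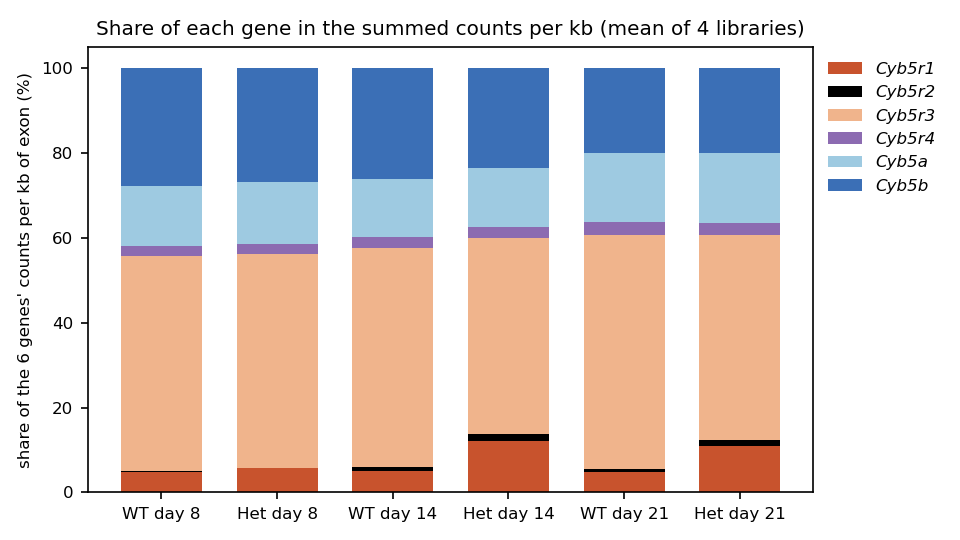
Each bar divides the summed counts per kb of exon of the 6 genes (100%) into the mean share of each gene over 4 libraries, for WT and Het at days 8, 14 and 21. *Cyb5r3* takes 46.2% to 55.2% in every bar, and *Cyb5r1* takes 12.05% and 10.8% in Het at days 14 and 21 against 5.11% and 4.82% in WT.

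In WT the level of *Cyb5r1* overlapped between the days of culture. Its RQ in replicates 1 to 4 was 0.0905, 0.0662, 0.0675 and 0.0745 at day 8. At day 14 it was 0.0758, 0.0759, 0.0702 and 0.0714, and at day 21 it was 0.0769, 0.0703, 0.0753 and 0.0728. Replicate 1 of day 8 was the highest of the 12 WT libraries. The log2 fold change of day 14 against day 8 in WT was −0.02 ± 0.15 (SE), with an edgeR adjusted p of 0.94, and that of day 21 against day 14 was 0.01 ± 0.15, with an adjusted p of 0.993. The first was −0.14 with TMM (adjusted p 0.575) and −0.31 with the total count as the scale (adjusted p 0.114). Of all genes tested, 30.7% were called between days 8 and 14 in WT and 8.45% between days 14 and 21.

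In Het the RQ of *Cyb5r1* in replicates 1 to 4 was 0.0860, 0.0815, 0.0901 and 0.0858 at day 8. At day 14 it was 0.111, 0.235, 0.195 and 0.183, and at day 21 it was 0.137, 0.185, 0.197 and 0.190. All 8 Het libraries of days 14 and 21 lay above all 8 WT libraries of those days and above every day 8 library, and replicate 1 was the lowest Het library on each of them. At days 14 and 21 the mean RQ was 0.179 ± 0.0384 (SD, n = 8) in Het and 0.0736 ± 0.00273 in WT, a ratio of 2.43, and it was 1.62 within replicate 1 and 2.72 within replicates 2 to 4. Of all genes tested, 0.387% had groups that did not overlap with Het higher and 7.15% were called higher in Het. *Cyb5r1* was chosen for this contrast, so nothing is read from these shares. On the log2 scale the fold change was 1.29 ± 0.11 (SE), and it was 1.30 ± 0.15 at day 14 alone and 1.27 ± 0.15 at day 21 alone. Among the WT libraries of those days the coefficient of variation was 3.71% and among the Het libraries 21.5%.

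At day 8, when the cells had just reached confluence, the ratio of *Cyb5r1* in Het to WT was 1.15, with 3 of 4 same-numbered libraries higher in Het. This was 0.20 ± 0.15 (SE) on the log2 scale, with an edgeR adjusted p of 0.735, where 0.631% of all genes were called. This value depended on replicate 1. Within replicate 1 the ratio was 0.950 and within replicates 2 to 4 it was 1.24. Without replicate 1 the edgeR log2 fold change was 0.31 with an adjusted p of 0.013. The share of 0.631% belongs to all 24 libraries and is no background for that fit. Fits that leave libraries out called very different numbers of genes at day 8, given at the end. The fold change at days 14 and 21 exceeded that at day 8 by 1.08 ± 0.19 on the log2 scale, given without a test. Between days 8 and 14 within Het, *Cyb5r1* differed by a log2 fold change of 1.08 ± 0.15 (0.80 with the total count as the scale), given without a test, with a ratio of 1.29 within replicate 1 and 2.38 within replicates 2 to 4. From day 14 to day 21 within Het the value was −0.03 ± 0.15.

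**Figure D2:**
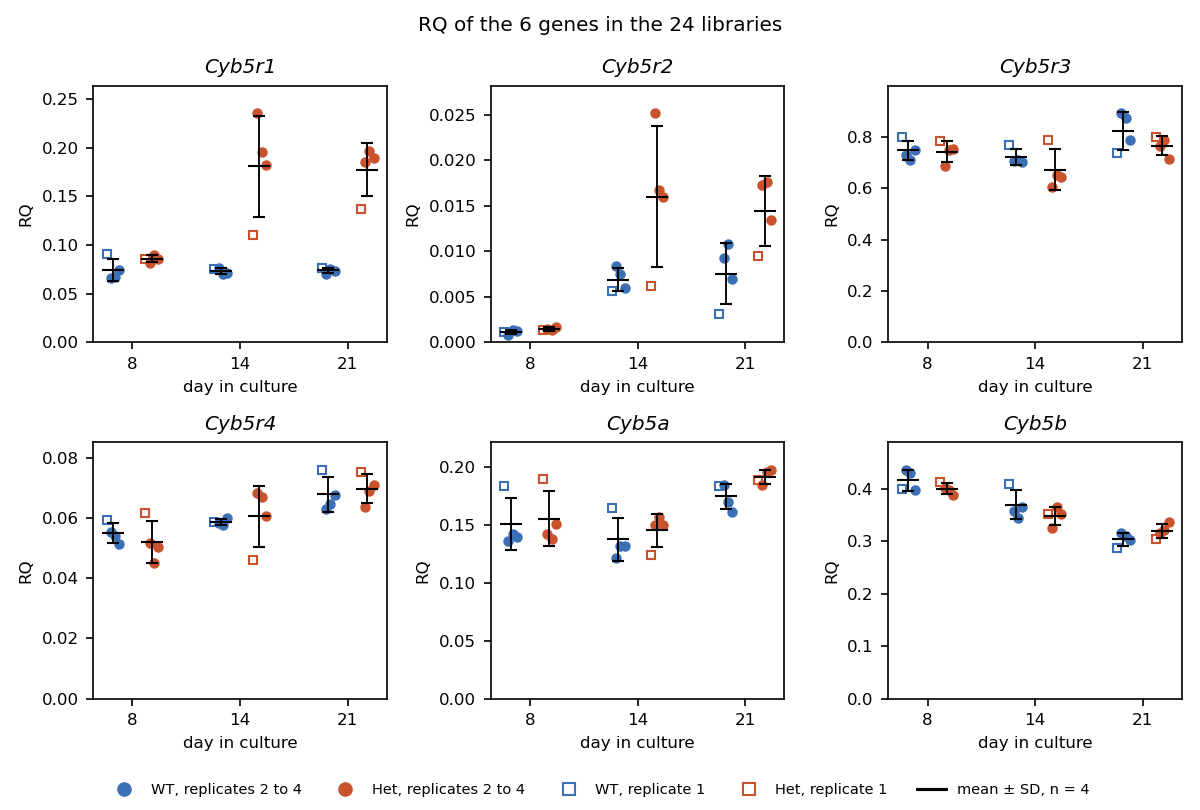
RQ (count over the geometric mean count of the 4 housekeeping genes) of each gene against day in culture, with 1 point per library, replicate 1 as open squares, and bars for the mean ± SD of 4 libraries. For *Cyb5r1* all Het points of days 14 and 21 (0.111 to 0.235) lie above all WT points (0.0702 to 0.0769), and *Cyb5r2* climbs from day 8 to day 14 in both genotypes.

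*Cyb5r2* was the member with the largest change over the culture, and it was scarce. It had 13 to 53 counts per library at day 8 and 33 to 459 later. In WT its RQ in replicates 1 to 4 was 0.00111, 0.000767, 0.00133 and 0.00124 at day 8. At day 14 it was 0.00566, 0.00835, 0.00752 and 0.00601. Every day 14 library lay above every day 8 library, which held for 28.4% of all genes, while 23.4% were called higher. *Cyb5r2* rose by a log2 fold change of 2.63 ± 0.37 (SE) in WT, with an edgeR adjusted p of 1.01e-05. *Ppfibp2*, the opposite-strand neighbour with shared exon bases, also rose between these days, by 2.10 ± 0.32 in WT (adjusted p 2.68e-05) and by 2.20 ± 0.32 in Het (adjusted p 1.46e-05), and its part in the counts of *Cyb5r2* was not tested. Between days 14 and 21 in WT the log2 fold change was 0.14 ± 0.33, with an adjusted p of 0.908.

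In Het the RQ of *Cyb5r2* in replicates 1 to 4 was 0.00135, 0.00145, 0.00136 and 0.00171 at day 8. At day 14 it was 0.00623, 0.0252, 0.0167 and 0.0160. The rise was 3.44 ± 0.37 (SE) on the log2 scale, with an edgeR adjusted p of 2.73e-07, where 35.4% of all genes were called and 26.4% were called higher. Every Het day 14 library lay above every Het day 8 library, as for 19.3% of all genes. This rise was 4.61-fold within replicate 1 and 12.8-fold within replicates 2 to 4 by mean RQ. At day 21 the RQ was 0.0095, 0.0173, 0.0176 and 0.0134 in Het and 0.00312, 0.00923, 0.0108 and 0.00698 in WT. Day 21 against day 14 in Het gave a log2 fold change of −0.15 ± 0.32, with an adjusted p of 0.882.

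With all 24 libraries on the housekeeping scale, *Cyb5r2* was the only relative of *Cyb5r1* called between the genotypes late in culture. At days 14 and 21 its mean RQ was 0.0152 ± 0.00571 (SD, n = 8) in Het and 0.00721 ± 0.00237 in WT, a ratio of 2.11, and it was 1.79 within replicate 1 and 2.17 within replicates 2 to 4. All 8 same-numbered pairs were higher in Het, and 6 of the 8 Het libraries lay above every WT library, so the groups overlapped. The fitted log2 fold change was 1.08 ± 0.23 (SE), with an edgeR adjusted p of 0.00534, so 1 of the 5 relatives was called where 15.2% of all genes were. That count is not read as a result about the family. The call of *Cyb5r2* was lost without replicate 2 (0.99, adjusted p 0.093), without replicate 3 (1.15, adjusted p 0.0604) and without replicate 4 (1.04, adjusted p 0.167). It held at day 14 alone (1.22, adjusted p 0.0459, where 3.45% of all genes were called) and was lost at day 21 alone (0.93, adjusted p 0.175, where 0.91% were called).

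At day 8 all 4 Het libraries of *Cyb5r2* lay above all 4 WT libraries, which held for 1.23% of all genes, at 19 to 53 counts in Het and 13 to 36 in WT. The fold change of 0.41 ± 0.37 (SE) on the log2 scale was not called (edgeR adjusted p = 0.801). The difference between the late and the day 8 fold change was 0.67 ± 0.44, with an adjusted p of 1.00, where 0.171% of all genes were called. *Ppfibp2* had a log2 fold change of −0.39 ± 0.22 in Het against WT at days 14 and 21, with an adjusted p of 0.236.

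The ratio of *Cyb5r2* to *Cyb5r1* counts in the same library does not depend on the housekeeping genes. It was 0.0151 ± 0.00383 (SD, n = 4) in WT and 0.0171 ± 0.00219 in Het at day 8. At day 14 it was 0.0940 ± 0.0173 and 0.0842 ± 0.0209, and at day 21 it was 0.103 ± 0.0463 and 0.0807 ± 0.0124. Both genotypes overlapped on each day, while the ratio of day 14 to day 8 was 6.30 in WT and 4.81 in Het.

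*Cyb5r3*, the classical reductase, was not called in any of the comparisons with all 24 libraries on the housekeeping scale. Its RQ in replicates 1 to 4 of WT was 0.766, 0.705, 0.708 and 0.703 at day 14, and 0.738, 0.890, 0.874 and 0.786 at day 21. The Het replicates had 0.786, 0.605, 0.651 and 0.645 at day 14, and 0.799, 0.762, 0.786 and 0.714 at day 21. The genotypes overlapped on both days, with replicate 1 high in Het at day 14. Het against WT at those days gave a log2 fold change of −0.10 ± 0.06 (SE), with an edgeR adjusted p of 0.225. By mean RQ the ratio of Het to WT was 1.05 within replicate 1 and 0.892 within replicates 2 to 4. Without replicate 1 *Cyb5r3* was called lower in Het (−0.16, adjusted p 0.00631), and so it was without the Het day 14 library of replicate 1 alone (−0.14, adjusted p 0.0422).

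Over the culture *Cyb5r3* had values of −0.05 ± 0.08 (SE) in WT (edgeR adjusted p = 0.689) and −0.14 ± 0.08 in Het (0.174) between days 8 and 14, and of 0.19 ± 0.08 in WT (0.155) and 0.19 ± 0.08 in Het (0.183) between days 14 and 21. In Het it was called lower at day 14 than at day 8 with TMM (−0.27, adjusted p 0.0106), with DESeq2's size factors (−0.27, adjusted p 0.00829), with the total count (−0.40, adjusted p 0.000498), without replicate 1 (−0.20, adjusted p 0.0112) and without its Het day 14 library (−0.23, adjusted p 0.0166). In WT the same scales gave −0.17 with TMM (adjusted p 0.106), −0.16 with DESeq2's size factors (adjusted p 0.113) and −0.34 with the total count, which was called (adjusted p 0.00218). Without replicate 1 it was called higher at day 21 than at day 14 in WT (0.27, adjusted p 0.00516) and in Het (0.25, adjusted p 0.0092), in Het also without the day 14 library of replicate 1 alone (0.27, adjusted p 0.0347).

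The ratio of *Cyb5r1* to *Cyb5r3* counts sets the marker against its best known relative in the same library. Its value at day 8 was 0.0996 ± 0.00986 (SD, n = 4) in WT and 0.116 ± 0.00492 in Het. At day 14 it was 0.102 ± 0.00409 in WT and 0.278 ± 0.103 in Het, and at day 21 it was 0.0904 ± 0.0107 and 0.233 ± 0.0418. At days 14 and 21 no Het library overlapped a WT library, and the ratio was 2.56-fold higher in Het, a description since *Cyb5r1* was chosen on this contrast. In WT it differed by 1.03-fold between days 14 and 8 (two-sided exact permutation test, p = 0.686, adjusted p = 0.762 over 10 tests of count ratios).

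**Figure D3:**
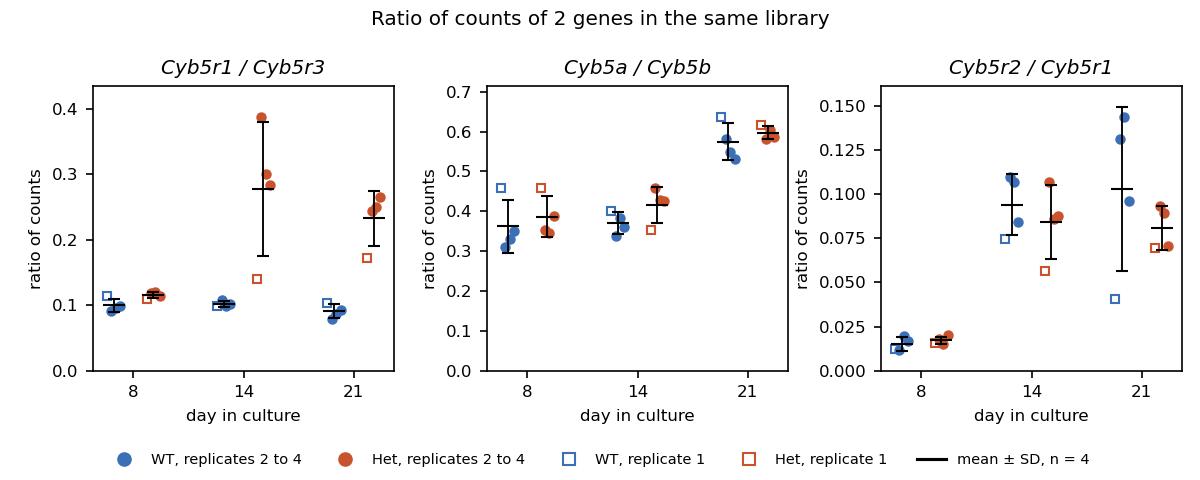
Ratios of counts of *Cyb5r1* to *Cyb5r3*, *Cyb5a* to *Cyb5b* and *Cyb5r2* to *Cyb5r1* in the same library against day in culture, with 1 point per library, replicate 1 as open squares, and bars for the mean ± SD of 4 libraries. The first ratio separates the genotypes at days 14 and 21. The second is higher in every day 21 library than in every day 14 library of its genotype (exact permutation test, adjusted p = 0.143 in each genotype). It overlaps between days 8 and 14. The third separates days 8 and 14 in each genotype, with the genotypes overlapping.

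*Cyb5r4*, the fusion of cytochrome b5 and reductase domains, had an RQ of 0.0551 ± 0.0033 (SD, n = 4) in WT and 0.0522 ± 0.00696 in Het at day 8. It had 0.0588 ± 0.00103 and 0.0606 ± 0.0101 at day 14, and 0.0679 ± 0.00584 and 0.0698 ± 0.00485 at day 21. At day 14 replicate 1 of Het was at 0.0462 and the other 3 Het libraries at 0.0607 to 0.0683, above all WT libraries. Between the genotypes the log2 fold change at days 14 and 21 was 0.04 ± 0.07 (SE), with an edgeR adjusted p of 0.758. In WT every day 21 library lay above every day 14 library, which held for 12.5% of all genes, but the log2 fold change of 0.21 ± 0.10 was not called (adjusted p = 0.256). In Het day 14 against day 8 gave 0.22 ± 0.10 with an adjusted p of 0.102, and it was called without replicate 1 (0.41, adjusted p 3.45e-05) or without its day 8 (0.31, adjusted p 0.0205) or day 14 (0.33, adjusted p 0.00535) Het library. In WT the value was 0.09 ± 0.10 (adjusted p = 0.541), and its sign turned with TMM (−0.02) and the total count (−0.19).

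Between days of culture *Cyb5b* was called lower in both genotypes and *Cyb5a* higher in Het only, with all 24 libraries on the housekeeping scale. Each of these calls was lost under some alternatives. *Cyb5b* (ENSMUSG00000031924.4, chr8:107150640-107187471 on the plus strand), the mitochondrial form, had RQ values in replicates 1 to 4 of WT of 0.400, 0.437, 0.431 and 0.399 at day 8. It had 0.409, 0.359, 0.345 and 0.366 at day 14, and 0.287, 0.316, 0.310 and 0.303 at day 21, so that every day 21 library lay below every day 14 library, as for 9.01% of all genes. In WT it fell by 0.17 on the log2 scale (SE 0.06) between days 8 and 14, with an edgeR adjusted p of 0.0328, where 7.28% of all genes were called lower. It fell by 0.28 (SE 0.06) between days 14 and 21, with an adjusted p of 0.00601, where 3.5% were called lower. By mean RQ the ratio of day 14 to day 8 was 1.02 within replicate 1 and 0.845 within replicates 2 to 4. The call between days 8 and 14 was lost without replicate 2 (−0.13, adjusted p 0.243), 3 (−0.12, adjusted p 0.305) or 4 (−0.19, adjusted p 0.137), and without any of 5 single WT libraries, replicates 2 and 3 of day 8 and 2, 3 and 4 of day 14 (−0.17 to −0.14, adjusted p 0.0734 to 0.119). It was also lost without *Mrfap1* (−0.14, adjusted p 0.16) or *Sdha* (−0.16, adjusted p 0.114), with no filter (−0.17, adjusted p 0.108) and with only the compared groups (−0.17, adjusted p 0.075). With TMM or DESeq2's size factors the value was −0.29 (adjusted p 0.00394 and 0.00386), and with the total count −0.46 (adjusted p 4.08e-05). The call between days 14 and 21 was lost without replicate 2 (−0.32, adjusted p 0.0545), 3 (−0.32, adjusted p 0.0608) or 4 (−0.29, adjusted p 0.13).

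In Het *Cyb5b* had an RQ of 0.414, 0.403, 0.398 and 0.389 at day 8, of 0.352, 0.325, 0.366 and 0.353 at day 14 and of 0.306, 0.317, 0.323 and 0.336 at day 21. It fell by 0.20 (SE 0.06) on the log2 scale between days 8 and 14, with an edgeR adjusted p of 0.012, where 8.99% of all genes were called lower, and every day 14 library lay below every day 8 library, as for 7.09% of all genes. The call was lost without replicate 2 (−0.17, adjusted p 0.135) or 4 (−0.22, adjusted p 0.0686), without *Mrfap1* (−0.16, adjusted p 0.105) and with only the compared groups (−0.20, adjusted p 0.0956). With TMM or DESeq2's size factors the value was −0.33 (adjusted p 0.00151 and 0.00107), and with the total count −0.46 (adjusted p 3.71e-05). The value between days 14 and 21 was −0.12 ± 0.06, with an adjusted p of 0.258. The genotypes were close. At days 14 and 21 the log2 fold change of Het against WT was −0.00 ± 0.04 (adjusted p = 0.972), and its sign changed with the scaling.

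*Cyb5a* (ENSMUSG00000024646.14, chr18:84838704-84879871 on the plus strand), the ER form, had RQ values in replicates 1 to 4 of WT of 0.184, 0.136, 0.142 and 0.140 at day 8. It had 0.164, 0.122, 0.132 and 0.132 at day 14, and 0.183, 0.184, 0.170 and 0.161 at day 21. In Het it had 0.190, 0.142, 0.138 and 0.151 at day 8, 0.124, 0.149, 0.157 and 0.150 at day 14 and 0.188, 0.184, 0.195 and 0.197 at day 21. In Het every day 21 library lay above every day 14 library, which held for 8.67% of all genes, and in WT the groups overlapped through replicate 1. *Cyb5a* rose between days 14 and 21 in Het by a log2 fold change of 0.40 ± 0.11 (SE), with an edgeR adjusted p of 0.0414, where 4.74% of all genes were called and 3.84% were called higher.

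The call of *Cyb5a* in Het between days 14 and 21 lay close to the threshold. It was lost without replicate 2 (0.43, adjusted p 0.152), 3 (0.43, adjusted p 0.158) or 4 (0.40, adjusted p 0.33). It was also lost without any of 13 single libraries (0.33 to 0.42, adjusted p 0.0501 to 0.0984), namely replicates 1, 2 and 4 of Het at day 14, all 4 of Het at day 21, replicates 2, 3 and 4 of WT at day 21, and replicate 4 of WT at days 8 and 14 and of Het at day 8. Nor was it called without *Sdha* among the housekeeping genes (0.42, adjusted p 0.066), with no filter (0.40, adjusted p 0.0692) or with only the compared groups (0.40, adjusted p 0.0735). In WT the value of 0.35 ± 0.11 (SE) missed the threshold (edgeR adjusted p = 0.0555). It passed with the replicate number as a block (0.35, adjusted p 0.0248), without replicate 1 (0.42, adjusted p 5.43e-05) or without its WT day 8, WT day 14, Het day 8 or Het day 14 library (0.35 to 0.44, adjusted p 0.0171 to 0.0405). It also passed with TMM, DESeq2's size factors or the total count (0.32 to 0.33, adjusted p 0.0104 to 0.0342), and with a mean of at least 50 counts, only the compared groups, replicate 1 as a covariate or DESeq2's Wald test (0.35 each, adjusted p 0.0161 to 0.0441).

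Between days 8 and 14 *Cyb5a* had values of −0.13 ± 0.11 (SE) in WT (edgeR adjusted p = 0.415) and −0.09 ± 0.11 in Het (0.574). With TMM it was called lower at day 14 in WT (−0.25, adjusted p 0.0182) and in Het (−0.21, adjusted p 0.0414), with DESeq2's size factors likewise (−0.24, adjusted p 0.0224, and −0.21, adjusted p 0.0403), and with the total count too (−0.42, adjusted p 0.00113, and −0.35, adjusted p 0.00471). In Het its ratio of day 14 to day 8 by mean RQ was 0.655 within replicate 1 and 1.06 within replicates 2 to 4.

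Between the genotypes *Cyb5a* differed at days 14 and 21 by a log2 fold change of 0.11 ± 0.08 (SE), with an edgeR adjusted p of 0.379. The ratio of Het to WT by mean RQ was 0.901 within replicate 1 and 1.15 within replicates 2 to 4. Without replicate 1 the fold change was 0.20 and called (adjusted p 0.000632), as it was with TMM (0.16, adjusted p 0.0434), DESeq2's size factors (0.17, adjusted p 0.0416) or the total count (0.20, adjusted p 0.0343) as the scale. At day 21 all 4 Het libraries lay above all 4 WT libraries, which held for 7.16% of all genes.

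The ratio of *Cyb5a* to *Cyb5b* counts, ER form over mitochondrial form, had a day 8 value of 0.363 ± 0.0661 (SD, n = 4) in WT and of 0.386 ± 0.0513 in Het. It was 0.370 ± 0.0270 and 0.416 ± 0.0451 at day 14, and 0.575 ± 0.0469 and 0.598 ± 0.0160 at day 21. Each day 21 library was above each day 14 library in both genotypes. Day 21 exceeded day 14 by 1.55-fold in WT and by 1.44-fold in Het (two-sided exact permutation tests, p = 0.0286 each, the smallest that 4 against 4 libraries allow, and adjusted p = 0.143 over the 10 ratio tests). At days 14 and 21 Het exceeded WT by 1.08-fold (two-sided exact permutation test, 8 against 8 libraries, p = 0.499, adjusted p = 0.643). That test pools both days, between which the ratio did not overlap. With the permutation kept within each day the p was 0.071, and with genotypes swapped within same-numbered pairs, as a block, it was 0.148, so none of the 3 passed. Het was higher in all 6 pairs of replicates 2 to 4 and lower in both pairs of replicate 1.

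**Figure D4:**
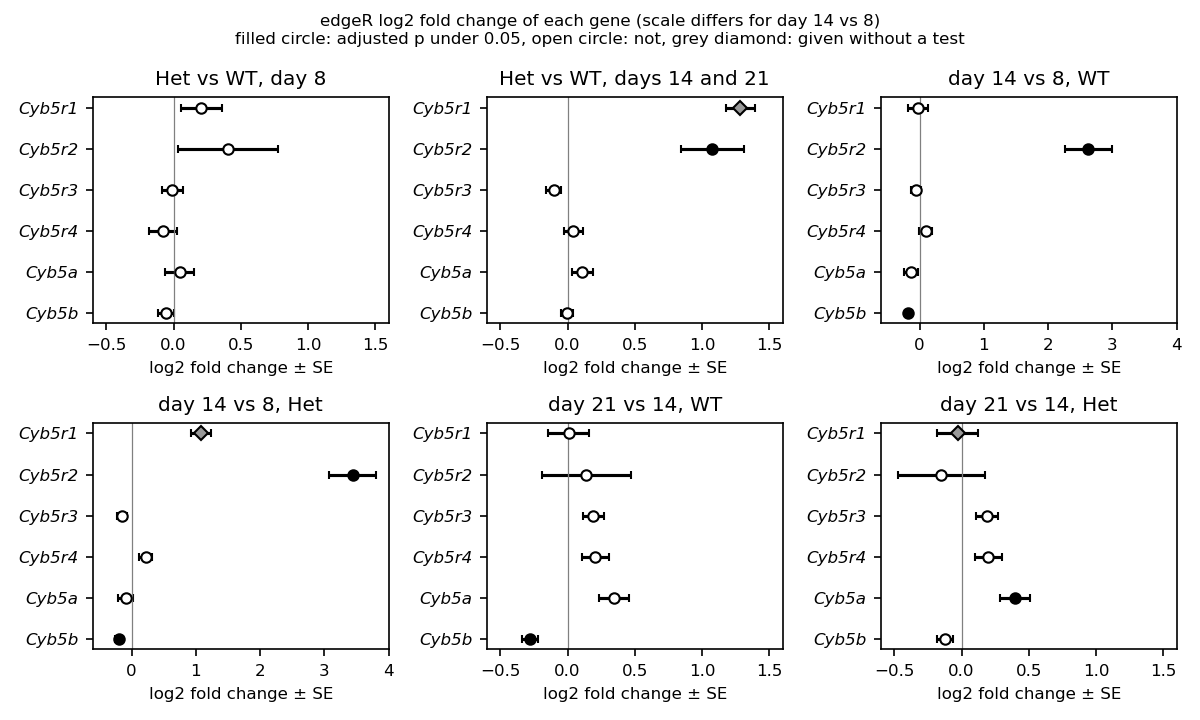
Log2 fold change ± SE of each gene in 6 comparisons, with filled circles for an adjusted p under 0.05, open circles for those above it and grey diamonds for values given without a test; the axis is wider for day 14 against day 8. *Cyb5r1* and *Cyb5r2* stand apart from the other 4 genes in Het against WT at days 14 and 21 (1.29 and 1.08, against −0.10 to 0.11), and *Cyb5r2* alone lies above 2 in both genotypes between days 8 and 14.

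Over the 24 libraries the genes whose log2 RQ followed that of *Cyb5r1* most closely, of 14845 with a mean of at least 50 counts and at least 1 count in every library, were *Car6* (Pearson's r = 0.968), *Hspa9* (0.942), *Gsto1* (0.906), *Arhgef2* (0.905) and *Tsfm* (0.899). *Car6* encodes a secreted carbonic anhydrase and *Hspa9* the mitochondrial HSP70. At days 14 and 21 the log2 fold change of Het against WT was 5.30 for *Car6* and 0.75 for *Hspa9*, given without a test because likeness to *Cyb5r1* chose them. *Car6* was scarce, with a mean of 72.3 counts over the 24 libraries, against 768 for *Tsfm*, the next lowest of the 5. Its log2 fold change of day 14 against day 8 within Het was 4.93. The WT libraries and those of day 8 therefore held few of its counts, and both its r and its fold change rest on low values there. The correlations are a description, with no p, and the 24 points share genotype, day and housekeeping genes. *Cyb5r2* ranked 405 with r = 0.671, *Cyb5r4* had r = 0.407, *Cyb5a* 0.359, *Cyb5b* −0.345 and *Cyb5r3* −0.406. *Gpt2*, *Asns* and *Shmt2*, amino acid enzymes that the study read with *Cyb5r1*, had r = 0.779, 0.751 and 0.685. By Spearman's rho 1 of the 5 genes stayed among the closest 5, by deviations from the group means 0, and on the scale of the total count or TMM 3 each.

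Of the desaturases, hydroxylases and sterol enzymes that take electrons from cytochrome b5 or carry a b5 domain of their own, 13 of 14 could be tested at days 14 and 21. In Het 6 of them were called lower and 0 higher, with a median log2 fold change of −0.25, where all genes tested had a median of −0.05 and 8.01% were called lower. The list was chosen with earlier results of these data known, so its count and median beside those of all genes are only a description. *Fads2*, the delta-6 desaturase, was lower in Het, with a log2 fold change of −0.43 ± 0.06 (SE) and an RQ between 0.339 and 0.352 in WT and between 0.224 and 0.272 in Het at day 14 (edgeR adjusted p = 8.94e-05). *Scd2*, a stearoyl-CoA desaturase, was also lower, with a log2 fold change of −0.36 ± 0.07 and an RQ between 2.66 and 2.89 in WT and between 1.90 and 2.33 in Het at day 14 (edgeR adjusted p = 0.00276). On that day the genotypes did not overlap for either gene, which held, Het being lower, for 8.24% of all genes.

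The other enzymes called lower were *Scd1* (−0.39 ± 0.11), the delta-5 desaturase *Fads1* (−0.16 ± 0.05), and *Sc5d* (−0.32 ± 0.08) and *Msmo1* (−0.25 ± 0.07), which act late in cholesterol synthesis. *Cyp51*, the sterol 14-demethylase, had −0.15 ± 0.06 (edgeR adjusted p = 0.074) and the ceramide desaturase *Degs1* −0.02 ± 0.07 (0.916). Over 44 fits, this one and its alternatives, *Fads2* was called in all, *Scd2* in 42, *Sc5d* in 39, *Msmo1* in 36, *Scd1* in 32 and *Fads1* in 23. The count of 6 was 2, 3 and 1 without replicates 2, 3 and 4, and 4 without the day 14 library of WT replicate 3 or the day 21 libraries of WT replicates 2 and 3. How many of all genes were called moved between these fits as well, with the fewest without replicate 4, as given at the end. These counts are therefore not read as a result about the enzymes alone. The count of 6 was 3 with TMM or DESeq2's size factors and 2 with the total count. At day 14 alone 2 were called lower (*Scd2* and *Fads2*), and at day 21 alone 1 (*Fads2*), where 3.45% and 0.91% of all genes were called in either direction. At day 8 edgeR called 0 of the 13 (1 at an unadjusted p under 0.05, *Scd2*), and DESeq2 called 0. Between days 8 and 14, 4 of the 13 rose and 1 fell in WT, where 23.4% of all genes were called higher and 7.28% lower, and 1 rose and 2 fell in Het, where 26.4% and 8.99% were. With TMM 1 rose and 1 fell in WT, with the total count 0 rose and 3 fell there and 1 rose and 7 fell in Het, and without replicate 4 none passed in WT (0 of 13).

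The other partner lists, also chosen with earlier results of these data known, held fewer calls between the genotypes. Of 7 genes related to the cytochromes or the reductases, 2 were called lower in Het at days 14 and 21, *Cyb5d2* (−0.27 ± 0.08, edgeR adjusted p = 0.0277) and *Pgrmc2* (−0.16 ± 0.05, adjusted p = 0.0338), and 0 were called higher, where 8.01% of all genes were called lower and 7.15% higher. *Cyb5d2* was called in 30 of the 44 fits and *Pgrmc2* in 24. At day 14 or day 21 alone edgeR called 0 of the 7 (1 at an unadjusted p under 0.05 on each day), and 0 without replicate 2, 3 or 4. *Cyb5rl*, the reductase-like gene nearest to the family by name, had −0.11 ± 0.07 (adjusted p = 0.311). Of 3 acceptors outside lipid synthesis, *Cygb*, cytoglobin, was called lower (−0.80 ± 0.19, adjusted p = 0.0098) at 27 to 192 counts per library at those days. It was called in 39 of the 44 fits, and on neither day alone. Of 10 other flavoprotein reductases, among them *Por*, which feeds the cytochromes P450, 0 were called in either direction by edgeR (2 at an unadjusted p under 0.05, *Gsr* and *Txnrd2*), and 0 by DESeq2. Over all 33 genes of the 4 lists the count was 0 higher and 9 lower, and it was 2, 3 and 1 lower without replicates 2, 3 and 4, 4 higher and 14 lower without replicate 1, and 4 higher and 3 lower with the total count as the scale. Among the fits that leave libraries out, the most genes of all were called without replicate 1 and the fewest without replicate 4. The counts over these fits are therefore not read as a result about the lists alone. Between days 8 and 14 in WT, 5 of the 10 reductases fell (*Por*, *Nqo1*, *Mtrr*, *Txnrd1* and *Fdxr*) and 1 rose (*Gsr*), where 7.28% of all genes were called lower and 23.4% higher. These counts were the same with TMM, and with the total count 8 fell and 0 rose. The number that fell was 2, 3 and 1 without replicates 2, 3 and 4. Fits that leave libraries out also differed in how many of all genes they called, so that number is not read as a result about the reductases alone.

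**Figure D5:**
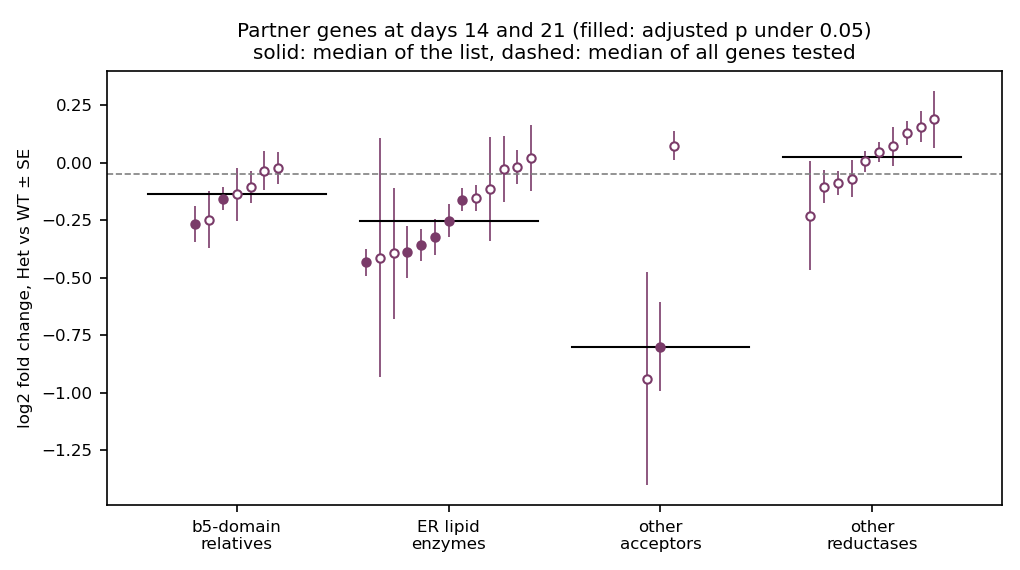
Log2 fold change ± SE of Het against WT at days 14 and 21 for each tested gene of the 4 partner lists, filled where the adjusted p was under 0.05, with a solid line at the median of the list and a dashed line at the median of all genes tested (−0.05). The filled points, 2 in the first list, 6 in the second and 1 in the third, all lie below 0. The lists were chosen with earlier results of these data known.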

How the data were processed

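RNA with poly(A) tails from primary parietal OBs was sequenced without molecular identifiers by the authors, who deposited raw counts per gene. Per the submitters' processing notes the tools were cutadapt 2.5, STAR 2.73a, Subread and featureCounts 1.6.4 with mm10; strand rule and treatment of multiply mapped reads are not given in the sources used here. Groups came from the sample labels. The deposited counts were tested with edgeR 4.0.16 (R 4.3.3), all 24 libraries in 1 fit of 6 groups, with the housekeeping scale used as library size and edgeR's default filter (filterByExpr), since the study also scales by those genes; the code recovered changed genes in simulated data. The study's own t- and U-tests were not used. Count ratios were compared by exact permutation (scipy 1.17.1). The 6 genes, the partner lists and the markers were chosen with earlier results of these data known. Genes were named as members, list genes past the test or needed for their role, the 5 closest to *Cyb5r1*, and markers.

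Intervals and SE cover the spread between libraries. Same-numbered WT and Het libraries deviated together (12 correlations, 0.194 to 0.789, median 0.371, against a median of −0.07 for 36 others). Without replicate 1 the 9 correlations had a median of 0.0558 and ranged from −0.015 to 0.153. Pairing by number was therefore shown for replicate 1 and not for the other replicates, where a shared number is only a label. Counts of same-numbered pairs, swaps within them and the replicate block rest on that label.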

Additional observations from a re-analysis of the deposited data

Results flagged for a closer look

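In each of the 6 groups of 4 libraries the highest and the lowest RQ of each gene were set against the rest of their group by Dixon's test at the 95% level, a test that flags about 1 in 20 groups by chance. Of 36 groups 2 held a library far from the others, and both were replicate 1 of WT. *Cyb5r3* in WT at day 14 had an RQ of 0.766 in replicate 1 and of 0.703 to 0.708 in the other 3 libraries. *Cyb5a* in WT at day 8 had an RQ of 0.184 in replicate 1 and of 0.136 to 0.142 in the others.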

How the results depend on the processing

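The alternatives were other scales (the total count, TMM, DESeq2's size factors, and 3 of the 4 housekeeping genes), other filters, a fit of only the compared groups, a replicate block, replicate 1 as a covariate, DESeq2's Wald test, each day alone, and leaving out each replicate or library. The log2 fold change of *Cyb5r1* at days 14 and 21 stayed between 1.20 and 1.44. The rises of *Cyb5r2* between days 8 and 14 were called under all alternatives run (2.34 to 2.75 in WT, 3.14 to 3.70 in Het). *Cyb5r2* at 13 to 53 counts at day 8 limits what could be detected there. No tested value that changed sign passed the test under that alternative.

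Genes called at days 14 and 21 numbered 3098, 5005 with the replicate block, 5365 with the covariate, 704 at day 14 alone, 186 at day 21 alone and 86 to 8236 with a replicate or library left out, highest without replicate 1 and lowest without replicate 4. Of the relatives of *Cyb5r1* 1 was called, 2 with TMM, DESeq2's size factors or the total count, 0 at day 21 alone and 0 to 3 with a replicate or library left out. At day 8 the 129 genes became 0 with only the compared groups, 315 with the block, 391 with the covariate, 458 with DESeq2's test and 0 to 3405 with a replicate or library left out. The 35 genes with a different effect late and at day 8 became 67, 73 and 92 with the block, the covariate and DESeq2's test, and 0 to 928 with a replicate or library left out. The block changed no other call of a member than that of *Cyb5a* between days 14 and 21 in WT. The cause of these moves was not tested. Fits that leave some libraries out also hold fewer of them.

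Between days 8 and 14, leaving out replicates or libraries gave 3682 to 8814 genes in WT and 4559 to 10815 in Het, and only the compared groups gave 4596 in Het. In WT 2 members were called, 3 with TMM or DESeq2's size factors (*Cyb5a* added) and 4 with the total count. It was 1 without *Mrfap1* or *Sdha*, with no filter or with only the compared groups, and 1 to 2 with libraries left out. In Het 2 relatives were called, 4 with TMM, DESeq2's size factors or the total count, 1 without *Mrfap1* or with only the compared groups, and 1 to 4 with libraries left out. Between days 14 and 21 in WT, 1726 genes became 2749 with only the compared groups, 2686 with the block, 2919 with the covariate and 31 to 3530 with libraries left out. The 1 member called became 2 with any of these 3 library scales, a mean of at least 50 counts, only the compared groups, the block, the covariate or DESeq2's test, and 0 to 3 with libraries left out. In Het 968 genes became 598 with no filter, 69 with only the compared groups, 1701 with the block, 2056 with the covariate, 1678 with DESeq2's test and 26 to 3696 with libraries left out. There the 1 relative called became 0 without *Sdha*, with no filter or with only the compared groups, and 0 to 2 with libraries left out.

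Signs changed for values near 0. For *Cyb5b* at days 14 and 21 the value was 0.051 with TMM, 0.055 with DESeq2's size factors, 0.093 with the total count, 0.00059 without *Actg1*, 0.017 without *Actb* and 0.076 at day 21 alone, and −0.029 to 0.022 with libraries left out. At day 8 the scales of TMM, DESeq2 and the total count gave 0.077, 0.086 and 0.082 for *Cyb5r3*, 0.00071, 0.010 and 0.0098 for *Cyb5r4* and 0.029, 0.039 and 0.037 for *Cyb5b*. *Cyb5r3* there was 0.0075 without *Actb* and −0.036 to 0.027 with libraries left out, and *Cyb5a* −0.065 to 0.15. The late minus day 8 difference of *Cyb5a* was −0.046 to 0.17 with libraries left out. Between days 8 and 14 in WT, *Cyb5r1* was 0.016 without *Mrfap1* and −0.095 to 0.079 with libraries left out, and *Cyb5r4* was −0.020, −0.015 and −0.19 on the 3 other scales. In Het *Cyb5r4* was −0.045 with the total count, and *Cyb5a* −0.19 to 0.083 with libraries left out. Between days 14 and 21 in WT, *Cyb5r1* was −0.012, −0.016 and −0.018 on those scales, −0.014 without *Mrfap1* and −0.021 to 0.050 with libraries left out, and *Cyb5r2* −0.081 to 0.38. In Het, *Cyb5r1* was −0.20 to 0.12 and *Cyb5r2* −0.41 to 0.15 with libraries left out. The log2 ratio of *Cyb5r1* to *Cyb5r3* between days 8 and 14 in WT was −0.035 to 0.113 with replicates left out, negative without replicate 2.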
